A study of Homo sapiens with 2 samples.

Results

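The genes described here encode the enzymes that conjugate ubiquitin to proteins and the enzymes that remove it, followed in A549 cells after silencing of p62/SQSTM1. They were taken by gene symbol, as every gene on the array whose symbol begins with UBE2, USP and a digit, OTU, UCHL or JOSD, together with UEVLD. This gave 95 of the 14884 genes named on the array. A gene was called measured when the higher of its 2 log2 values reached the median of all values of named probe sets, a limit that lies between 5.33 and 5.37 and that 65 of the 95 members and 7896 of all genes met. A549 is a lung adenocarcinoma cell line. Cells received an siRNA against p62 (siP62) or a control siRNA (siCONTROL), both under standard growth conditions, and total RNA was taken 24 hours later. Each condition was read on 1 Affymetrix whole-transcript array, so no value has a replicate error and no test between the conditions was possible. The labels give neither the siRNA sequences nor whether a pool was used.

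Ubiquitin is first activated by an E1 enzyme, passed to the catalytic cysteine of an E2 conjugating enzyme and then placed on a substrate with the help of an E3 ligase. The E2 decides in large part which type of chain is built, and some E2 enzymes carry SUMO, NEDD8 or ISG15 in place of ubiquitin. Deubiquitinases cut ubiquitin off again. The ubiquitin-specific proteases (USP) are the largest of their families, and the ovarian tumour (OTU), ubiquitin C-terminal hydrolase (UCH) and Josephin enzymes are smaller ones. p62 binds ubiquitin chains and carries the marked cargo to autophagosomes.

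SQSTM1, the target of the siRNA, had a log2 level of 7.30 with siP62 and 8.64 with siCONTROL, so 39.5% of the control level remained. Over the 7896 measured genes the median difference, siP62 minus siCONTROL on the log2 scale, was 0.04, and its robust SD (the scaled median absolute deviation) over genes was 0.22. That SD describes genes between these 2 arrays and is not a replicate error. The 5 epithelial markers on the array lay between 6.93 and 11.97 with siP62 and between 6.75 and 11.95 with siCONTROL. Of 4 alveolar type II markers on the array SFTPB alone was measured, and the defining surfactant gene SFTPC lay at 4.27 in both arrays. The endothelial and fibroblast markers on the array were below the limit, with levels of at most 3.83, while the monocyte marker CD14 was measured, at 5.94 with siP62 and 5.98 with siCONTROL. In RNA from whole cultures, fewer cells of a type and less RNA per cell cannot be told apart.

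As a family, the members stayed close to equal between the arrays, and a single gene, UEVLD, differed by 2-fold. Of the 65 measured members, 0 were higher by 1.5-fold or more and 1 was lower by that much, against 2.08% higher and 1.6% lower among all measured genes. At 2-fold the members again had 0 higher and 1 lower, against 0.165% and 0.228% of all measured genes. The smaller differences were spread in the same way. A difference of 0.25 or more was reached by 11 members (16.9%) on the higher side and 7 (10.8%) on the lower side, where all measured genes had 17.8% and 11.9%. More than 2 robust SDs of genes of like level were passed by 4 members (6.15%), UEVLD, USP47, UBE2G1 and UBE2D4, and by 8.14% of all measured genes. This distance was taken from 0 and not from the median of all measured genes. UBE2D4 and USP47 passed it narrowly, both at 2.02 SDs. With that median subtracted, UBE2D4 moved from 0.54 to 0.50, nearer to 0, and USP47 from -0.39 to -0.43, further from it.

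The median difference of the measured members was 0.06, against 0.04 for all measured genes, and the robust SD over members was 0.19. Of the members 41 were higher with siP62, 23 lower and 1 equal. That is 63.1% higher and 35.4% lower, where all measured genes had 55.4% and 41.8%. After subtraction of the median difference of all measured genes the same members split into 33 higher, 28 lower and 4 equal, so the share of higher members depends on the scaling, and was 50.8% after this subtraction. The E2 family had 12 higher and 5 lower of 17 measured, with a median of 0.04. Against the median of all measured genes, which was the same 0.04, 8 of the 17 were above, 8 below and 1 at it. Deubiquitinases had 27 higher, 18 lower and 1 equal of 46, with a median of 0.05. Against the median of all measured genes 23 of the 46 were above, 20 below and 3 at it.

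**Figure D1:**
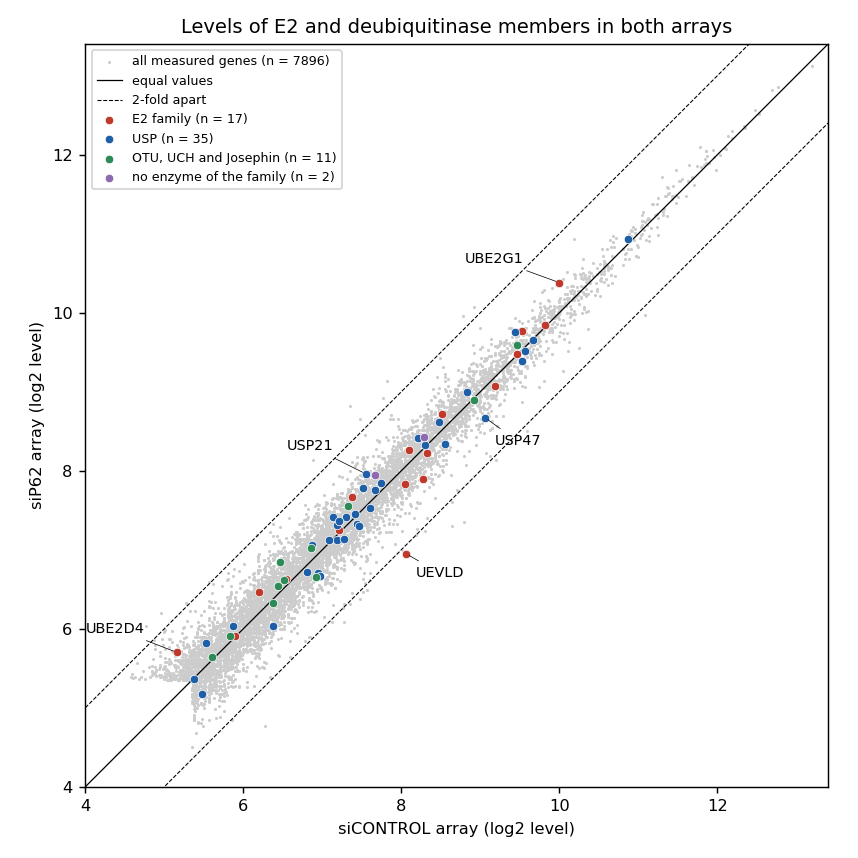
Each point is a gene, with its log2 level with siCONTROL on the horizontal axis and with siP62 on the vertical axis; grey points are the 7896 measured genes and coloured points the 65 measured members by family. All members lie inside the dashed 2-fold lines except UEVLD, at 6.95 with siP62 and 8.06 with siCONTROL.

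**Figure D2:**
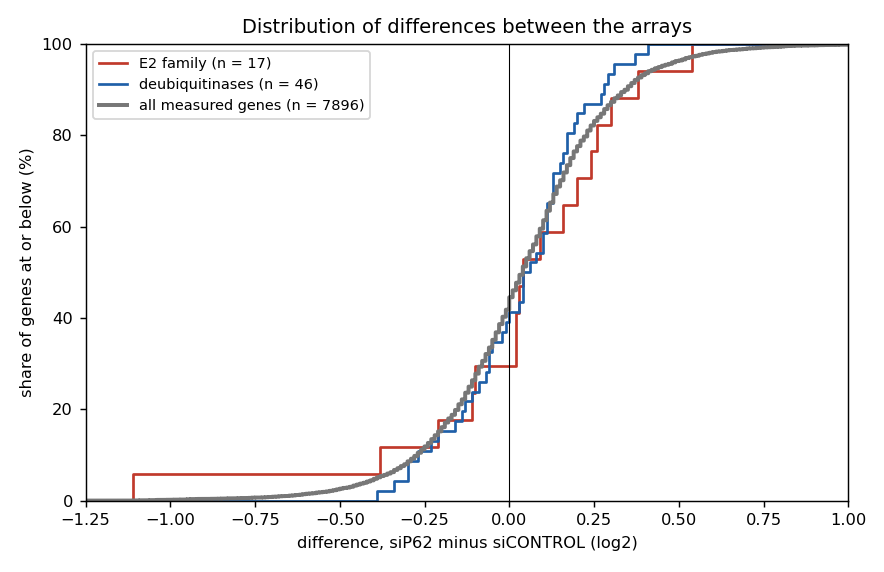
Cumulative share of genes (vertical axis, percent) by difference between the arrays (horizontal axis, log2) for the 17 E2 family members, the 46 deubiquitinases and all 7896 measured genes. The curves run close together, and the step of the E2 family at -1.11 is UEVLD.

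UEVLD belongs to the ubiquitin E2 variants, proteins with the fold of an E2 but without its catalytic cysteine, and it also carries a domain like that of lactate dehydrogenase. Its log2 level was 6.95 with siP62 and 8.06 with siCONTROL, a difference of -1.11, or 2.16-fold lower. This left 46.3% of the control level. Of all 7896 measured genes 4 had a lower difference, and none of the others among the 395 genes of like level did. The robust SD of those 395 genes was 0.22. UEVLD was read by 1 probe set, and no second probe set was there to set beside it.

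The other E2 variants and the measured genes beside UEVLD were close to equal or higher. UBE2V1, the variant that pairs with UBE2N to build chains used in signalling, had 9.48 with siP62 and 9.46 with siCONTROL. UBE2V2, its close relative, was just under the limit, with 5.31 with siP62 and 5.18 with siCONTROL. UBE2N was at 4.92 in both arrays and so was not measured. TSG101, the E2 variant of the endosomal sorting complex ESCRT-I and the neighbour of UEVLD in the RefSeq gene order of GRCh38.p14, differed by -0.06. LDHA, a lactate dehydrogenase gene 4 places away in that order, differed by -0.08. MISFA, the neighbour on the other side, lay below the limit and differed by -0.11. TMEM86A, 3 places away on that side, had 5.40 with siP62 and 4.9 with siCONTROL, the opposite direction. It met the limit only through its siP62 value, so the size of this difference is uncertain.

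The promoter of UEVLD and those of the 3 measured members with the highest differences, UBE2D4, USP21 and UBE2G1, are printed as the sequences at both ends of the range. Each runs from 250 bases before to 50 bases after the gene's start in RefSeq (GRCh38.p14), 5′ to 3′ on the gene's strand. Capitals mark matches to the motifs searched below, and the UEVLD window holds none of them. The windows are chr11:18588685-18588984 on the minus strand for UEVLD, chr7:43926186-43926485 on the plus strand for UBE2D4, chr1:161159250-161159549 on the plus strand for USP21 and chr17:4366626-4366925 on the minus strand for UBE2G1.
UEVLD: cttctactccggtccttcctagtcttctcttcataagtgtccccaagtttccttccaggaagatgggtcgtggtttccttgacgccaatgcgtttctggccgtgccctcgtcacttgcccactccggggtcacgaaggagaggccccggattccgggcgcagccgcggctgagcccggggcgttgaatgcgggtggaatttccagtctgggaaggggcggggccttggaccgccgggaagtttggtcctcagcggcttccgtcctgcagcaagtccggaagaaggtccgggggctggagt
UBE2D4: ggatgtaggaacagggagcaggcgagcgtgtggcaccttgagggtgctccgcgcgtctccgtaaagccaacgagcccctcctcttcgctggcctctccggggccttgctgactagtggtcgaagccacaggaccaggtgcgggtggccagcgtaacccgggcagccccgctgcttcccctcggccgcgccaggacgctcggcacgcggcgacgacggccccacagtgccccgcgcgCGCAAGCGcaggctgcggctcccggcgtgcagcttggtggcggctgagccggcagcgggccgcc
USP21: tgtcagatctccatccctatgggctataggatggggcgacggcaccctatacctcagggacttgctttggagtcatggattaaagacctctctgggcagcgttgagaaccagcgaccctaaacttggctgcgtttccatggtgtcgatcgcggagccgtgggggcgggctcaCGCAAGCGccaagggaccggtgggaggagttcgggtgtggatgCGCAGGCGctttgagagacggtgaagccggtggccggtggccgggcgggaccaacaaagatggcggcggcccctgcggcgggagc
UBE2G1: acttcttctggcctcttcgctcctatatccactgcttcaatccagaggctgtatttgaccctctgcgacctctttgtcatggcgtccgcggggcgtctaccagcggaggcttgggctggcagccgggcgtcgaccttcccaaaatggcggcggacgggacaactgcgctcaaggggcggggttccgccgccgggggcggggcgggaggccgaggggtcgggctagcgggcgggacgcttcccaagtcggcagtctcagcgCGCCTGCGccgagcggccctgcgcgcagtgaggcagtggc

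A promoter window of this kind was found for 68 of the 95 members, 54 of them measured. The antioxidant response element bound by NRF2, the factor that p62 frees by holding KEAP1, was searched as TGACNNNGC on both strands. It was present in 9 of the 54 windows (16.7%), against 15.2% of the windows of all measured genes and 13.6% of all 27305 promoters of this length. The 9 genes were JOSD2, OTUD1, UBE2K, UBE2Q2, UCHL3, UCHL5, USP13, USP14 and USP38. Their median difference was 0.10, and that of the 45 members without it 0.09, 0.01 apart on the log2 scale. The core of the motif of nuclear respiratory factor 1 (NRF1), a factor common at housekeeping promoters, was searched as CGCNTGCG on both strands. It was present in 17 of the 54 windows (31.5%), against 19.4% of the windows of all measured genes and 10.6% of all promoters. Those of UBE2D4, USP21 and UBE2G1 held it, while those of JOSD1 (0.37), USP5 (0.31) and UBE2Q2 (0.30) did not. Of the members with the core 14 were higher and 3 lower, the latter being OTUD5, UBE2R2 and USP14. Of the 37 members without it 22 were higher, 14 lower and 1 equal. Among all measured genes with the core, 684 of 1217 were higher and 501 lower. The motifs were chosen after the values were seen, and a link between the core and the differences was not tested. Members with the core had a median difference of 0.13 and the 37 without it one of 0.08, while over all measured genes the medians with and without it were both 0.04. The cyclic AMP response element TGACGTCA was present in 1 member window, that of UBE2S (1.85%, against 3.28% for measured genes and 1.98% for all promoters), and the ETS motif CCGGAAGT in 4 (7.41%, against 9.25% and 4.43%). The motifs may overlap each other, and a match is a string of letters, not a bound site.

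Among the E2 enzymes that serve many RING ligases, UBE2D4 had the highest difference of all measured members. It stood at 5.70 with siP62 and 5.16 with siCONTROL, a difference of 0.54 or 1.45-fold. Its siCONTROL value lay below the limit, so the size of this difference is uncertain. UBE2E2, another E2 of this kind, had 6.63 with siP62 and 6.54 with siCONTROL. Its relatives UBE2E1 and UBE2E3 were below the limit in both arrays.

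The E2 enzymes that build or lengthen chains were close to equal except for UBE2G1. UBE2G1, which extends chains on substrates of cullin ligases, had 10.38 with siP62 and 10 with siCONTROL. The difference of 0.38 was 2.56 times the robust SD of genes of like level, 0.15, and 11 of 394 such genes were higher. UBE2R2, a partner of cullin ligases as well, lay on the other side at 9.07 with siP62 and 9.18 with siCONTROL. UBE2K, which builds chains that mark proteins for the proteasome, differed by 0.03 as deposited and by -0.01 once the median of all genes was subtracted. UBE2S, which lengthens chains for the anaphase-promoting complex, differed by 0.04, the median of all genes. UBE2G2, an E2 of endoplasmic reticulum-associated degradation and the closest relative of UBE2G1, had 6.46 with siP62 and 6.20 with siCONTROL, a difference of 0.26. Both UBE2G genes were thus on the higher side.

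Of the E2 enzymes that handle ubiquitin-like proteins, UBE2Z, which is charged by UBA6 and also carries FAT10, had 9.77 with siP62 and 9.53 with siCONTROL. UBE2L6, the E2 of ISG15, was nearly equal at 5.91 with siP62 and 5.89 with siCONTROL. The 2 measured E2 enzymes of DNA repair were both slightly higher. UBE2A, a human counterpart of yeast RAD6, had 8.72 with siP62 and 8.52 with siCONTROL. UBE2T, the E2 of the Fanconi anaemia pathway, had 8.26 with siP62 and 8.10 with siCONTROL. UBE2B, the other RAD6 counterpart, was below the limit, with 4.18 with siP62 and 4.71 with siCONTROL.

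The remaining E2 enzymes lay lower in 3 of 4 cases, where all measured genes had 41.8% lower. UBE2Q1 had 7.89 with siP62 and 8.27 with siCONTROL, a difference of -0.38. UBE2Q2, which resembles it and like it has a long N-terminal extension, had 7.67 with siP62 and 7.37 with siCONTROL, a difference of 0.30. These 2 relatives stood on opposite sides and were 0.68 apart on the log2 scale, the widest gap among the listed pairs of relatives with both genes measured. UBE2H, the partner of the CTLH ligase, differed by -0.21, and UBE2O, a large E2 that also acts as a ligase, by -0.10.

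**Figure D3:**
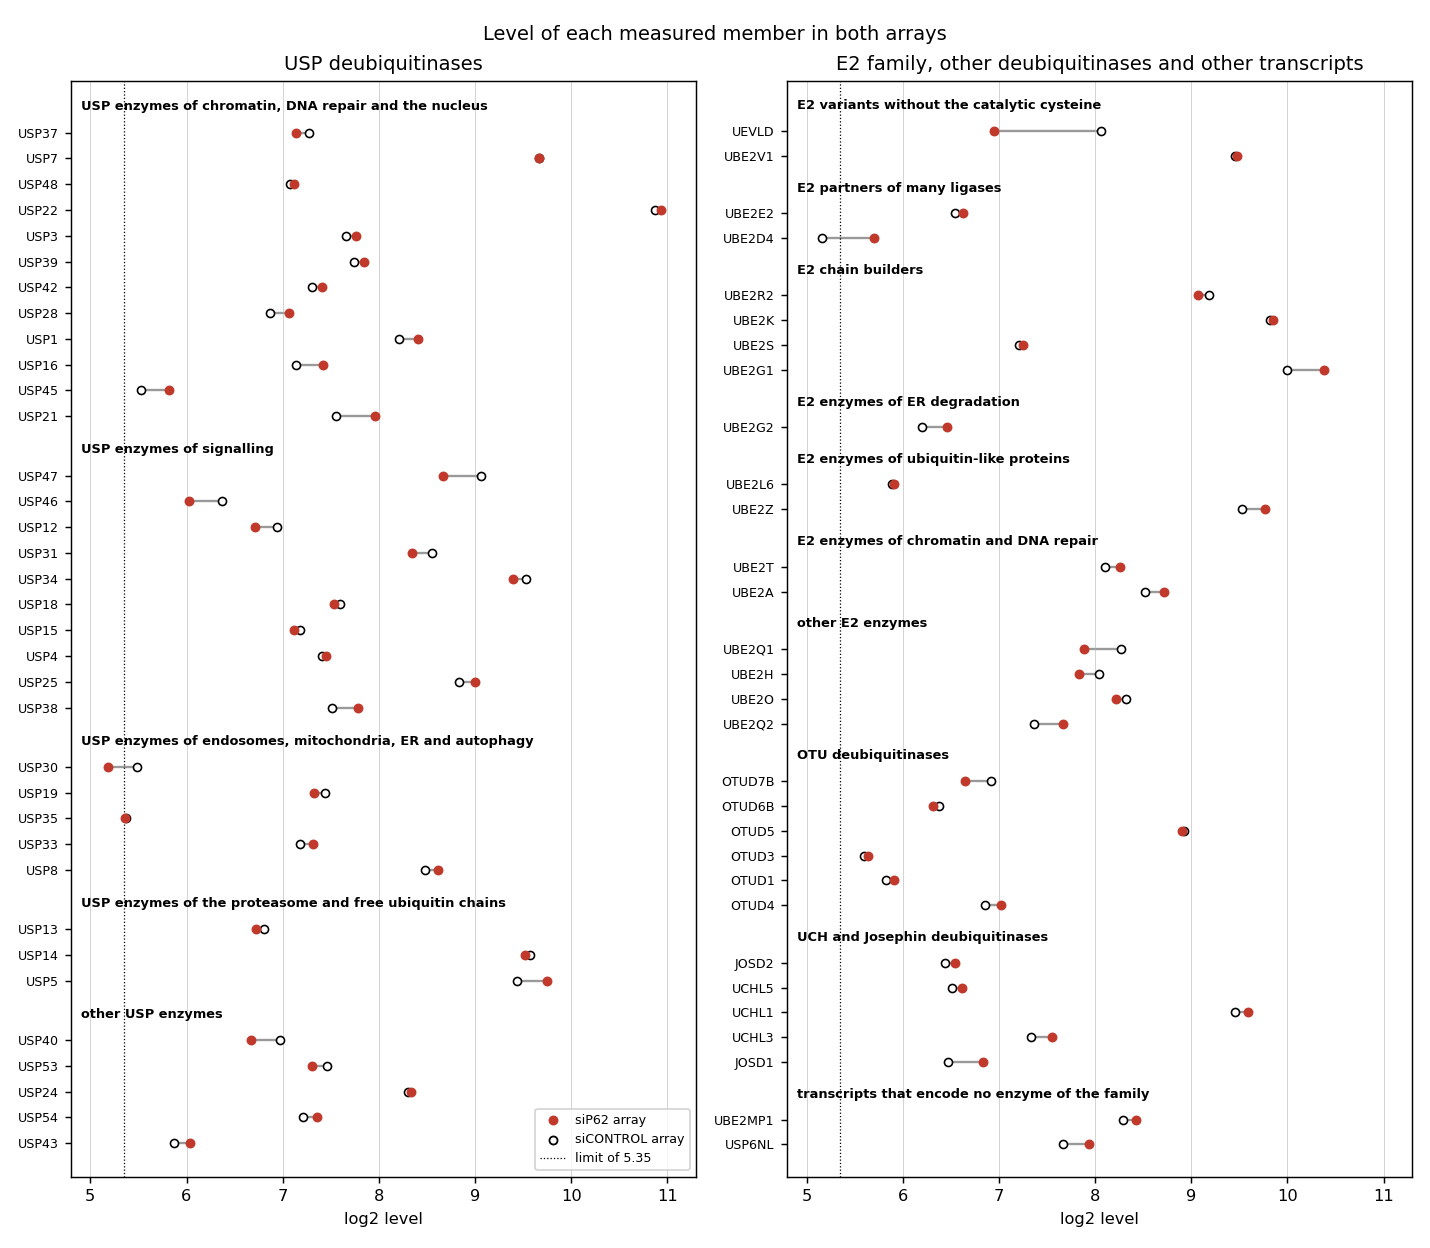
Log2 level (horizontal axis) of each of the 65 measured members with siP62 (filled) and the siCONTROL array (open), grouped by role and ordered by difference within each role; the dotted line is the limit for a measured gene. The longest line is that of UEVLD, and the nuclear USP enzymes lie mostly with the siP62 value to the right, the signalling USP enzymes mostly with it to the left.

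Among the USP deubiquitinases, those of chromatin, DNA repair and the nucleus were mostly higher, with 10 higher, 1 lower and 1 equal of 12 measured. That is 83.3% higher and 8.3% lower, where all measured genes had 55.4% and 41.8%. The median difference of this class was 0.11. After subtraction of the median of all genes that median was 0.07, with 9 of the 12 above the median of all genes. USP21, a histone H2A deubiquitinase, had 7.96 with siP62 and 7.55 with siCONTROL, a difference of 0.41 or 1.33-fold. USP16, which also acts on histone H2A, had 7.42 with siP62 and 7.14 with siCONTROL. Another enzyme of that substrate, USP3, differed by 0.10, so these 3 stood on the same side with unequal sizes. USP45, which acts on the repair nuclease subunit ERCC1, had 5.82 with siP62 and 5.53 with siCONTROL. USP1, which removes ubiquitin from FANCD2 and PCNA, had 8.41 with siP62 and 8.21 with siCONTROL. USP28, known for stabilising MYC, differed by 0.19. Smaller differences were those of USP39, a splicing factor without protease activity (0.11), USP42 (0.11), USP22 of the SAGA coactivator (0.06) and USP48 (0.04). USP7, the deubiquitinase of MDM2 and p53, was equal at 9.66 in both arrays. USP37, which stabilises cyclin A, was the only 1 of the 12 on the lower side, at 7.14 with siP62 and 7.27 with siCONTROL.

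USP deubiquitinases placed with signalling went the other way, with 3 higher and 7 lower of 10 measured, against 55.4% higher and 41.8% lower among all measured genes. Their median was -0.105, or -0.145 after subtraction of the median of all genes. USP47, known from base excision repair and Wnt signalling, had 8.67 with siP62 and 9.06 with siCONTROL. Its difference of -0.39 was the lowest after UEVLD, at 2.02 times the robust SD of genes of like level. USP46 had 6.03 with siP62 and 6.37 with siCONTROL, and its close relative USP12 had 6.71 with siP62 and 6.94 with siCONTROL. Both of these enzymes need the WD-repeat proteins WDR48 and WDR20 for activity, and they stood on the lower side together while WDR48 differed by 0.21 and WDR20 by 0.05. USP31, an enzyme tied to NF-kB, differed by -0.21, and USP34, which acts on axin in Wnt signalling, by -0.14. The ISG15 protease USP18 differed by -0.07. USP15, which acts in TGF-beta signalling and against parkin, differed by -0.06, and its relative USP4 by 0.04, the median of all genes. On the higher side stood USP38, with 7.78 with siP62 and 7.51 with siCONTROL, and USP25, with 9.0 with siP62 and 8.83 with siCONTROL. The roles were assigned from general knowledge of each enzyme, with earlier results of these data known, and several USP enzymes act in more than 1 of them. USP47, for its part in repair, could be placed in either class. Whether the contrast between the nuclear and signalling classes depends on this sorting was not tested.

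USP deubiquitinases of endosomes, mitochondria, the endoplasmic reticulum and autophagy had 2 higher and 3 lower of 5 measured. USP30, the mitochondrial enzyme that opposes parkin and so restrains mitophagy, had 5.18 with siP62 and 5.48 with siCONTROL. Its siP62 value was below the limit, and the difference of -0.30 was smaller than the robust SD of genes of like level, 0.39. USP8, which acts on receptors sorted at endosomes, had 8.61 with siP62 and 8.48 with siCONTROL. USP33 differed by 0.13, USP19, an enzyme anchored in the endoplasmic reticulum, by -0.11, and USP35 by -0.01. None of these 5 passed 1 robust SD of genes of like level.

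The enzymes that work at the proteasome and on free chains were read by USP5, USP13 and USP14 and by UCHL5. USP5, which takes apart unanchored ubiquitin chains, had 9.75 with siP62 and 9.44 with siCONTROL, a difference of 0.31. Its relative USP13 differed by -0.09, with 6.72 with siP62 and 6.81 with siCONTROL. The proteasome-bound USP14 differed by -0.05 and UCHL5, the other cysteine deubiquitinase of the proteasome, by 0.11. Of the remaining USP enzymes, USP40 had 6.67 with siP62 and 6.97 with siCONTROL, a difference of -0.30. USP53 (-0.16) and USP54 (0.15), a pair of relatives, stood on opposite sides. USP43 differed by 0.17 and USP24 by 0.03.

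The OTU deubiquitinases had 3 higher and 3 lower of 6 measured, with a median of 0.01 as deposited and -0.03 after subtraction of the median of all genes. OTUD7B (Cezanne), which restrains NF-kB and cuts a chain type of mitosis, had 6.65 with siP62 and 6.92 with siCONTROL. OTUD4 had 7.02 with siP62 and 6.86 with siCONTROL. The other 4 were nearer to equal, with OTUD1 at 0.08, OTUD3 at 0.04, OTUD5 (DUBA), a brake on type I interferon, at -0.02 and OTUD6B at -0.06.

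All 5 UCH and Josephin enzymes were measured and all 5 were higher with siP62, with a median difference of 0.13. All 5 were also higher after subtraction of the median of all genes, where their median was 0.09. JOSD1 had 6.84 with siP62 and 6.47 with siCONTROL, a difference of 0.37. JOSD2 differed by 0.10. UCHL3, which also processes ubiquitin and NEDD8 precursors, had 7.55 with siP62 and 7.33 with siCONTROL, and UCHL1, an abundant enzyme of neurons, had 9.59 with siP62 and 9.46 with siCONTROL. No member of this group passed 1.5-fold, and among all measured genes 55.4% were higher.

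Of 16 listed pairs of relatives among the members, 10 had both genes measured, and 5 of these had the same sign while 5 did not. The list was chosen after the values were seen and does not hold every pair of relatives. This count was not set against pairs of other genes, and it depends on the scaling, since USP4 took the sign of USP15 after loess subtraction (-0.0093). The gap between the 2 differences of a pair had a median of 0.195 and reached 0.68. Besides UBE2Q1 with UBE2Q2, USP5 with USP13 lay 0.40 apart. USP25 with USP28 lay nearest among the listed pairs with both genes measured, at 0.02.

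Other genes of the same pathway, 81 in all, were listed beside the members, and 47 of the 51 on the array were measured. Of these 24 were higher, 21 lower and 2 equal, with a median of 0.03, where all measured genes had 55.4% higher and 41.8% lower. At 1.5-fold 0 were higher and 1 was lower, where all measured genes had 2.08% higher and 1.6% lower. That gene was CYLD, a deubiquitinase of the USP fold that carries no USP symbol, with 6.08 with siP62 and 7.12 with siCONTROL. CYLD and UEVLD were thus the only measured genes past 1.5-fold among the members and these lists.

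The E1 enzymes were near equal, with 3 higher, 3 lower and 1 equal of 7. UBA1, the main ubiquitin E1, had 11.11 with siP62 and 11.04 with siCONTROL, and MOCS3 had the highest difference at 0.29. SAE1, a subunit of the SUMO E1, had the lowest at -0.08. Among the genes of ubiquitin and its relatives 5 of 7 were lower, where all measured genes had 41.8% lower. Of the 5, SUMO2 (-0.14), FAU (-0.11) and SUMO3 (-0.07) lay within 1 robust SD of genes of like level. ISG15 had 5.69 with siP62 and 6.18 with siCONTROL, while its E2 UBE2L6 and its protease USP18 differed by 0.02 and -0.07. The polyubiquitin gene UBB had 6.46 with siP62 and 6.83 with siCONTROL, and URM1 differed by 0.25.

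The E2 enzymes with other names had 3 higher, 2 lower and 1 equal of 6, from CDC34, the relative of UBE2R2, at 0.31 to TSG101 at -0.06. Deubiquitinases with other names had 5 higher and 6 lower of 11. Besides CYLD, YOD1, an OTU enzyme that works with the segregase VCP, had 5.95 with siP62 and 5.50 with siCONTROL. Of the deubiquitinase cofactors 5 of 8 were higher, where all measured genes had 55.4% higher. The widest differences among these cofactors were in partners of USP22 in the SAGA complex. ENY2 had 6.39 with siP62 and 5.89 with siCONTROL, a difference of 0.50, and ATXN7 had 5.90 with siP62 and 6.35 with siCONTROL, a difference of -0.45. USP22 itself differed by 0.06. Proteases of ubiquitin-like proteins had 6 higher and 2 lower of 8, against the same 55.4% higher among all measured genes. The SUMO protease SENP1 differed by 0.41, with 9.90 with siP62 and 9.49 with siCONTROL, and DESI2 by -0.25.

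**Figure D4:**
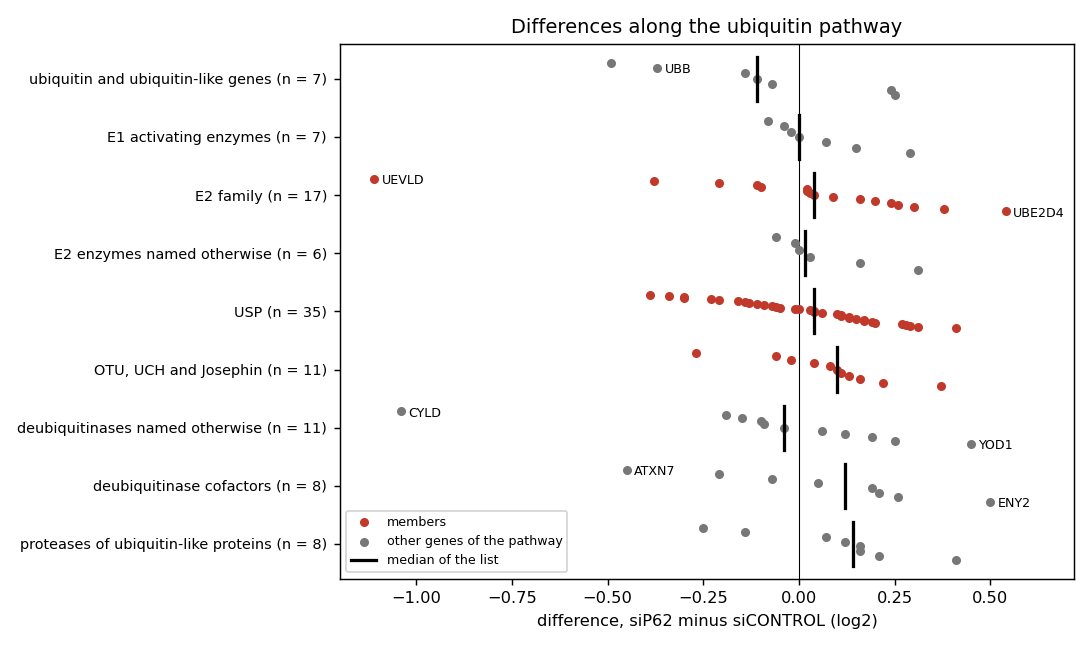
Difference between the arrays (horizontal axis, siP62 minus siCONTROL, log2) of every measured gene in each list of the ubiquitin pathway (rows), with members in red, other genes in grey and the list median as a black bar. UEVLD at -1.11 and CYLD at -1.04 stand far to the left of all other points.

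The 30 members below the limit had log2 levels of 2.08 to 5.33, and being below it does not show that a gene is silent. The 3 members just inside the limit were USP35, USP30 and OTUD3, with higher values of 5.37, 5.48 and 5.64. Just outside were UBE2QL1, UBE2V2 and USP20, with 5.33, 5.31 and 5.21. USP20 had 5.21 with siP62 and 4.83 with siCONTROL. Of the 30, 9 encode no enzyme of the family, 3 are USP17-like copies and 18 are other family genes, among them OTUD7A (-0.27, like its measured relative OTUD7B).

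Of the 11 members that share the symbol but encode no enzyme of the family, 2 were measured. USP6NL, a GTPase-activating protein named after USP6, had 7.94 with siP62 and 7.67 with siCONTROL. UBE2MP1, a pseudogene of the NEDD8 E2 gene UBE2M, had 8.43 with siP62 and 8.29 with siCONTROL, and its probes were not checked against UBE2M. Without these members the counts at 1.5-fold and 2-fold were the same and the median difference was 0.04.

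The differences of the members did not follow their level. Across the 65 measured members the difference had a Pearson correlation of 0.024 and a Spearman correlation of 0.04 with the mean level, and across all 7896 measured genes 0.011 and 0.024. The levels in the siP62 and siCONTROL arrays had a Pearson correlation of 0.982 over the members and 0.981 over all measured genes. These are descriptions across genes, which are not independent replicates, and all points come from the same 2 arrays.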

How the data were processed

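The data were 2 Affymetrix whole-transcript arrays, 1 for each group, made from 100 ng of total RNA per the labels' protocols. The deposited values are log2 levels per probe set, written to 2 decimals. The submitters' processing notes name RMA, a background correction, normalization and summary of probes, and Transcriptome Analysis Console 4.0.2.15. RMA as commonly run makes the arrays' distributions alike, so a shift of all genes would not be seen. No build for the probe sets is given in the sources used here, and no detection calls or scanner files were used.

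Of 48226 probe sets, 16098 had 1 gene symbol in the platform annotation, 0 had several and 32128 were unnamed here. Each gene was read from its brightest probe set by mean level. All 95 members matched RefSeq (GRCh38.p14) by gene ID. The limit for a measured gene is the median of all values of named probe sets. Genes of like level are 1 of 20 bins by mean level. No test was run, since each group held 1 array and precision is limited by that number. Counts were made with Python 3.11.15, pandas 2.3.3 and statsmodels 0.14.6 and run on simulated data. The planted differences there were far larger than 1.5-fold, so that run checks the code and not counts near that fold. Named genes were SQSTM1, members past 1.5-fold, all measured members of small role classes, class extremes and members near the limit. Members, lists and tests were chosen with earlier results of these data known, and the motifs, pairs of relatives and transcripts that encode no enzyme after the values were seen. Alternatives were median, loess and quantile scaling, probe set means and other filters.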

Additional observations from a re-analysis of the deposited data

How the results depend on the processing

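Values of 1 array per group have an error that cannot be estimated, and signal near the limit for a measured gene restricts what can be read. UBE2D4 and USP30 each had 1 array below it. Median subtraction, loess subtraction, quantile normalization, probe set means, a limit at the 70th percentile and a limit on both arrays each gave UEVLD as the only member past 1.5-fold, as did leaving out members that encode no enzyme, an alternative chosen after seeing the data. With no filter 2 members were 1.5-fold lower, the added gene being USP17L15, at 3.05 with siP62 and 3.79 with siCONTROL. Without a filter the class medians were 0.07 for E2 partners of many ligases (0.09 with both arrays above the limit, where UBE2D4 dropped out), 0.02 for the E2 variants and -0.06 for transcripts that encode no enzyme. These 4 medians moved because other genes entered or left. The other 107 alternative medians moved by less than the robust SD over genes used in place of a replicate spread. Differences of single members could change only under the 3 scalings. All 65 measured members had 1 probe set, and a filter only keeps or drops a gene. Under the scalings each difference moved by less than the robust SD of genes of like level. Median subtraction moves every gene by the same 0.04, so these small moves are no measure of replicate error. Under the 3 scalings 7 members, with differences of at most 0.04, and 3 of 15 class medians (E2 chain builders, OTU and other USP enzymes) changed sign. The share of members higher was 50.8% after median subtraction, 52.3% after loess and 58.5% after quantile normalization, against 63.1% as deposited. Among all measured genes, 127 were 1.5-fold higher and 154 lower after median subtraction, against 164 and 126 as deposited. No paired analysis was possible because each group held 1 array.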

Other observations

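Some probe sets of the family gave the same pair of values. A second probe set of USP2 and that of its antisense transcript USP2-AS1 both had 4.60 with siP62 and 4.70 with siCONTROL. The probe set that stood for USP2, a regulator of cyclin D1 and MDM2, had 4.55 with siP62 and 4.84 with siCONTROL. USP17L12 and USP17L9P, copies of the USP17 family, both had 3.48 in each array, while a second probe set of USP17L9P had 2.23 with siP62 and 1.85 with siCONTROL. Whether probes are shared between these loci was not tested. Other copies differed, with USP17L10 at 4.27 with siP62 and 4.03 with siCONTROL. All of these lay below the limit for a measured gene.

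The antisense transcripts of the family were below the limit as well. USP30-AS1 had 3.24 with siP62 and 3.82 with siCONTROL, a difference of -0.58 beside -0.30 for USP30. USP3-AS1 had 5.01 with siP62 and 4.96 with siCONTROL, beside 0.10 for USP3.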
